A study of Rattus norvegicus with 12 samples.

Results

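The 10 genes described here encode cytokines of the interleukin-1 (IL-1) family (Il1a, Il1b, Il18 and Il33), the family's receptor chains Il1r1, Il1rap and Il1rl1, its receptor antagonist Il1rn, and the cytokines interleukin-6 (Il6) and tumour necrosis factor (Tnf). They were taken by name, and every non-control probe whose transcript maps to one of them was used. Of the 10 genes, 9 had a probe that could be named, with 12 probes in all, out of 15154 named genes and 30367 probes on the array. Il1r1 had none and was not analysed here.

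RNA came from primary hippocampal cultures of E18 Wistar rat embryos, grown for 14-15 days in Neurobasal medium. One set was deprived of oxygen and glucose (OGD, an in vitro model of ischemia) in an anaerobic chamber, in a saline buffer that held 25 mM sucrose and no glucose, while the control set stayed in air and CO2 in the same buffer with 25 mM glucose. After the insult all cultures went back to conditioned medium and were collected 7 h or 24 h later. This gave 4 groups of 3 arrays (Ctrl and OGD at each recovery time), each array holding Cy3-labelled material made from 200 ng of RNA, with 3 independent cultures as the replicates. The labels call the tissue primary hippocampal neurons, but other cell types' markers were measured too: 12 of 12 neuronal markers and 10 of 11 measured astrocyte markers, Gfap and Aqp4 among them, were well above background on all 6 control arrays, as were 12 of 16 microglial markers. The microglial list had exceptions in Ptprc, which was well above background on no array, and in Itgam, P2ry12 and C1qc, which missed it on some control arrays.

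As background, IL-1 alpha and IL-1 beta bind the type 1 IL-1 receptor (Il1r1), which recruits the accessory chain IL-1RAP and the adaptor MyD88 and signals to the transcription factor NF-kappaB. The antagonist encoded by Il1rn occupies the same receptor without recruiting the accessory chain. IL-33 is kept in the nucleus and released from damaged cells, and its receptor ST2, the product of Il1rl1, pairs with the same accessory chain. ST2 is made as a membrane receptor and as a secreted form that traps IL-33. In the brain, IL-33 is known from astrocytes and oligodendrocytes, while IL-1 beta, TNF and IL-6 are best known as early products of microglia and astrocytes after injury.

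Levels below are log2 signals relative to the array median, so that 0 is the median probe of that array, and they are not comparable between probes. A probe was taken as measured where the scanner software found it well above background. A gene was called higher or lower where its brightest probe passed an unadjusted limma p of 0.05 and a fold of 2. A difference is said below to pass the test where its unadjusted limma p was under 0.05, whatever its adjusted p. The arrays had median intensities of 131 to 660, and 78.4% to 87.1% of their spots were well above background. The first OGD array at 24 h stood apart with the median of 131, against 374 and 546 on the other OGD arrays of that time. On 3 of the 6 slides the control and the OGD array were scanned between 177 and 211 min apart, and on the other 3 together.

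At 7 h of recovery 3 of the 9 genes were called higher (Il1rl1, Il1rn and Il6) and none lower, against 2.08% of all probes called higher and 1.66% called lower. At 24 h 2 were called higher (Il1rl1 and Il1rn) and again none lower, against 3.71% and 1.96% of all probes. No member passed an adjusted limma p of 0.05 at either time, and neither did any other probe (0% at 7 h and 0% at 24 h): the lowest adjusted p on the whole array was 0.117 at 7 h and 0.209 at 24 h. The unadjusted limma p of 0.05 alone was passed by 3590 probes at 7 h and by 4160 at 24 h. With Benjamini-Hochberg adjustment, the methods' t-test left 1 probe at 7 h and 0 at 24 h. The median change of the 9 genes was 0.56 at 7 h and 0.32 at 24 h on the log2 scale, where the median of all probes was -0.06 and 0.01. All 3 OGD arrays lay above all 3 control arrays for 4 members at 7 h (Il1rl1, Il1b, Il1rn and Il6), against 10.6% of all probes, and for 3 at 24 h (Il1rl1, Il1rn and Tnf), against 10.9%. Scaled to the arrays' spike-in probe instead of the array median, the median of all probes moved to -0.86 at 7 h and -1.01 at 24 h, so every difference below is relative to the rest of the array.

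**Figure D1:**
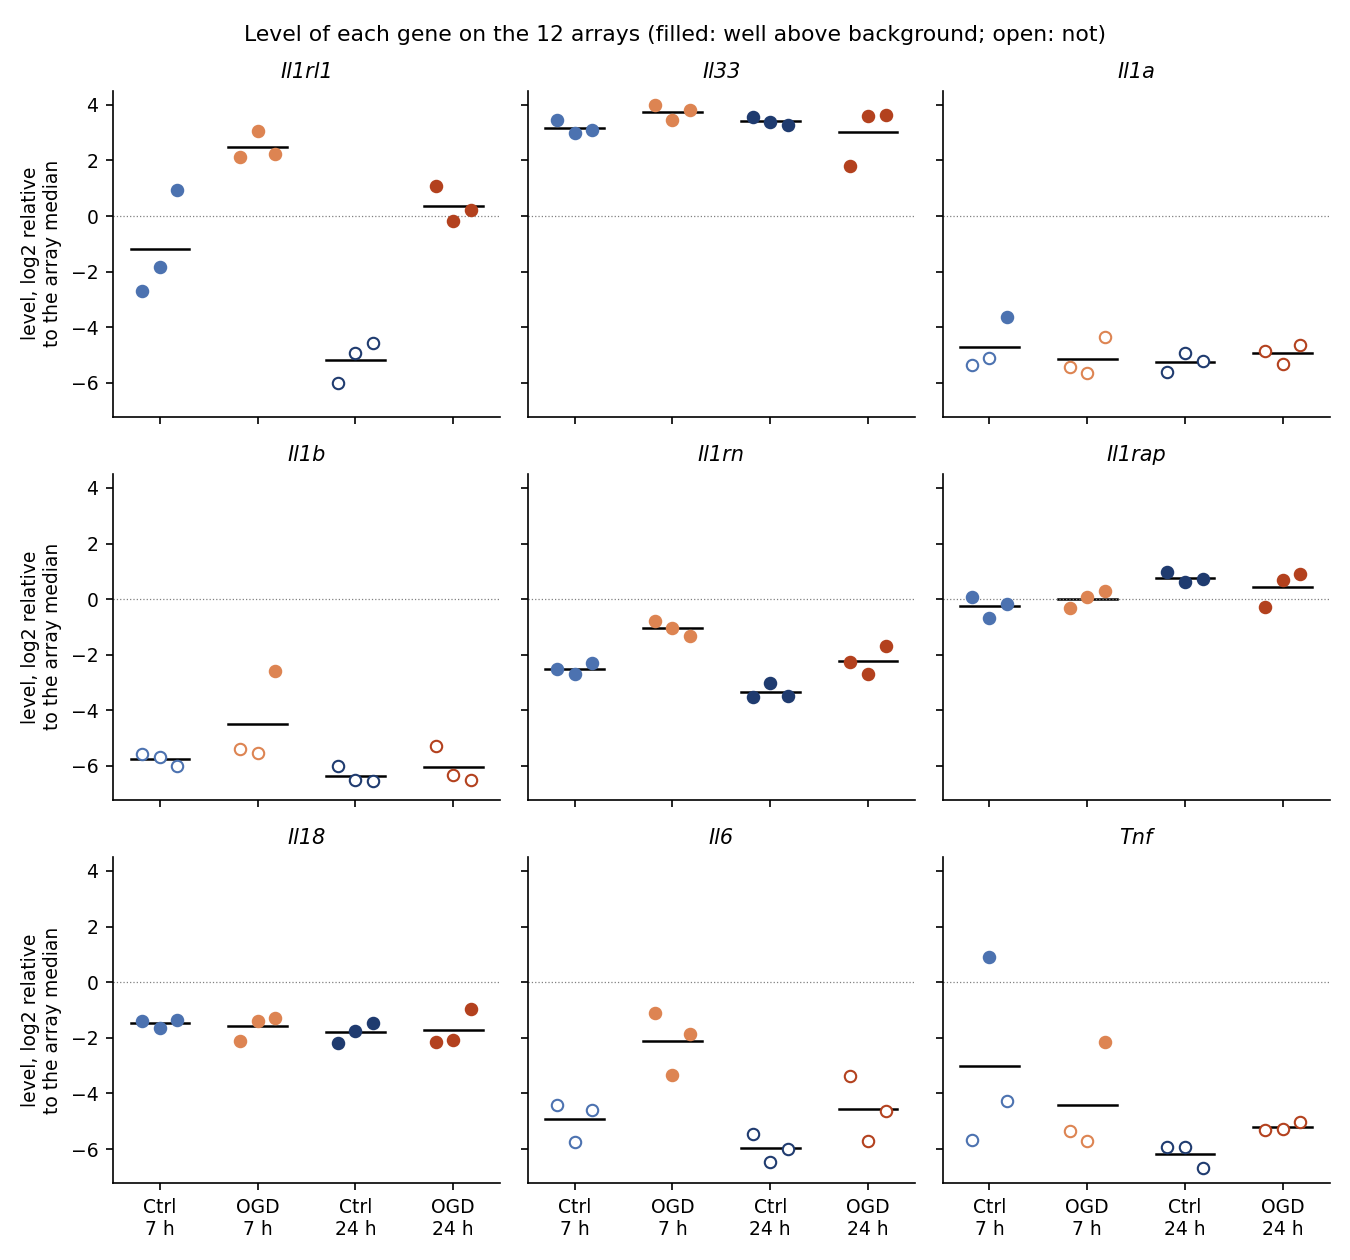
Level of each gene's brightest probe on the 12 arrays, as log2 relative to the array median, with 3 arrays a group and a bar at the group mean. Filled points were well above background and open points were not. Il1rl1 and Il1rn lie higher after OGD at both times, and Il6 at 7 h, while Il33, Il1rap and Il18 show overlapping groups.

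Since Il1rl1, Il1rn and Il6 were called higher together at 7 h, their promoters are shown, as the 250 bases before the transcription start in RefSeq's GRCr8 rat assembly. All 10 genes matched the RefSeq promoter table, with 12 entries. The window was searched on both strands for 3 motifs: the kappaB consensus, the AP-1 motif TGANTCA and the cyclic AMP response element TGACGTCA. Capitals mark a match. The windows are chr9:50203388-50203637 (plus strand) for Il1rl1, chr3:27520072-27520321 (plus strand) for Il1rn and chr4:5894576-5894825 (minus strand) for Il6. The starts of Il1rl1 and Il1rn in this table lie inside the span annotated for each gene, so each span begins upstream of the start used here.
Il1rl1: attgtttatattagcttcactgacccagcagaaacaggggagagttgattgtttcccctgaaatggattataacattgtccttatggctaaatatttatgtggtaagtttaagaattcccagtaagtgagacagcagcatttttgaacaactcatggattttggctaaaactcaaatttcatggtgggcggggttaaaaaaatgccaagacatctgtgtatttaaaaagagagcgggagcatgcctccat
Il1rn: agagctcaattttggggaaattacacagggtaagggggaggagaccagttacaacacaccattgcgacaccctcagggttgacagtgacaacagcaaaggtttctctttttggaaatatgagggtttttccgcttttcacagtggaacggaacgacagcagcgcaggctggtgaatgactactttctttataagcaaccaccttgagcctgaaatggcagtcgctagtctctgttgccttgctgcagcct
Il6: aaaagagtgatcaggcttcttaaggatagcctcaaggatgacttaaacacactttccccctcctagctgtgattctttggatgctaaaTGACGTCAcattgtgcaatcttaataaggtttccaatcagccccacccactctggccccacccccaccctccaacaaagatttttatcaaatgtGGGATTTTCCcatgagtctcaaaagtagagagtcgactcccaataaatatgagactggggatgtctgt

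Only the Il6 window held matches among these 3. Counted from the start, its kappaB match lay at -68 to -59 and its TGACGTCA at -162 to -155. Of all 33469 promoter entries of this length, 6.33% held a kappaB match, 6.34% a TGANTCA and 1.59% a TGACGTCA. Among the other members, Il1r1 and both entries of Il1rap held a kappaB match and Il1a a TGANTCA, and the windows of Il33, Il1b, Il18 and Tnf held none of the 3. A match is a run of letters and not a measured site.

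Il1rl1, which encodes the IL-33 receptor ST2, was called higher at both times. Its brightest probe (A_43_P11672) read -2.68, -1.85 and 0.93 on the control arrays at 7 h and 2.14, 3.05 and 2.24 on the OGD arrays. The lowest and highest intensities behind these were 45.8 and 505 in controls and 533 and 1497 after OGD. The 7 h controls were widely spread, with the third control array the nearest to the OGD arrays, but the groups did not overlap. The difference was 3.68 on the log2 scale (SE 0.79, n = 3 a group), a fold of 12.8 with a 95% interval from 3.83 to 42.8 (limma adjusted p = 0.196).

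At 24 h the same probe read -6.02, -4.92 and -4.57 in controls, none of them well above background, and 1.09, -0.16 and 0.21 after OGD, all of them well above it. Intensities were 2.90 to 8.87 in controls and 157 to 275 after OGD. The fitted log2 difference was 5.55 (SE 0.79, limma adjusted p = 0.209). Since the control level is only a bound, the fold is given as at least 26.8. This sets the mean of the bright group against the control arrays, each taken at the higher of its own value and its lowest signal well above background. The bound holds for the main processing only. With normexp background correction the 24 h difference was 2.15, and averaged over the gene's probes it was 3.40. At 7 h these 2 alternatives gave 2.48 and 2.21. The difference was present on all 3 slides at both times. Neither call was lost under any of the 25 alternatives run, and leaving out single arrays or replicate 1 moved the fitted difference between 2.94 and 4.74 at 7 h and between 4.77 and 5.85 at 24 h. Over the 24 of those alternatives fitted with limma, the adjusted p ran from 0.0605 to 0.784 at 7 h and from 0.0105 to 0.686 at 24 h, the lowest of these without control replicate 3 at 7 h.

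A dimmer Il1rl1 probe (A_44_P365584), which the array assigns to another transcript of the gene, was well above background on none of the 12 arrays. Its readings ran from -5.72 to -4.37 in controls and from -5.09 to -4.18 after OGD at 7 h, and from -6.43 to -5.96 against -5.5 to -4.40 at 24 h. It read 0.74 higher after OGD at 7 h (limma adjusted p = 0.497) and 1.25 higher at 24 h (adjusted p = 0.29), and no fold is given because both groups lay at background. Neither probe was assigned here to membrane or secreted ST2.

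Il1rl1 also differed between the recovery times within each condition, a comparison added after the levels were seen. In controls the mean level was -1.2 at 7 h and -5.17 at 24 h, at least 8.96-fold lower at the later time (limma adjusted p = 0.0755). The fitted control difference was -3.97, and -2.91 without control replicate 3 at 7 h. Normexp background correction gave -1.28, and the control call was kept both times. In OGD cultures the mean level was 2.48 at 7 h and 0.38 at 24 h, 4.28-fold lower (limma adjusted p = 0.222). The OGD call was lost without OGD replicate 2 at 7 h, where the difference was -1.81, or without OGD replicate 2 or 3 at 24 h (-1.83 and -2.01). Each slide held a single recovery time, so time and slide cannot be told apart. Scaled to the spike-in probe, the median of all probes moved by -4.62 between the control times and by -4.77 between the OGD times. The OGD response at 24 h exceeded that at 7 h by 1.87 (SE 1.11, limma adjusted p = 1.0), which did not pass the test and rests on 24 h controls at background. Without control replicate 1 at 7 h this difference between the responses passed the test.

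Il33, the ligand of ST2, was well above background on all 12 arrays and showed no call. At 7 h its probe (A_44_P310596) read 3.45, 3.0 and 3.09 in controls and 3.98, 3.44 and 3.82 after OGD. The groups overlapped slightly, and the difference of 0.56 (SE 0.42, 95% interval -0.36 to 1.49) did not pass the test (limma adjusted p = 0.61). The OGD array read higher on all 3 slides. The same difference passed the test with limma on each time alone (adjusted p = 0.26) and without OGD replicate 1 at 24 h (adjusted p = 0.141). Without all of replicate 1 it was 0.58 and passed too (adjusted p = 0.413). Normexp background correction gave 0.02 and scaling to the spike-in probe -0.24, and neither passed. At 24 h controls read 3.57, 3.39 and 3.28, and OGD arrays 1.80, 3.59 and 3.64. A single OGD array, the dim first one, was low, and the other two OGD arrays lay above every control. The difference was -0.40 with all arrays (SE 0.42, 95% interval -1.33 to 0.53, limma adjusted p = 0.677) and 0.20 without that array, and neither passed the test. On the same array the mean level of the 11 astrocyte markers was also the lowest of the 12 arrays, at 4.07 against 4.78 to 5.56 on the others. That of the neuronal markers was the lowest as well, at 3.16, while that of the microglial markers was the highest, at -0.41. The part of these shifts in the Il33 reading was not tested.

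Il1rap, the accessory chain that ST2 and the IL-1 receptor share, was well above background on all 12 arrays through its brighter probe (A_64_P134370). This read 0.08, -0.67 and -0.18 in controls and -0.33, 0.09 and 0.30 after OGD at 7 h, and 0.96, 0.60 and 0.73 against -0.27, 0.67 and 0.89 at 24 h. The groups overlapped at both times. The differences were 0.28 (95% interval -0.43 to 0.98, limma adjusted p = 0.755) and -0.33 (-1.03 to 0.37, adjusted p = 0.647). Between the control times it was 1.02 higher at 24 h (limma adjusted p = 0.203), a call that fell below a fold of 2 without control replicate 2 at 7 h (0.81) or control replicate 1 at 24 h (0.92). The call was also lost with 75th percentile centring and with quantile normalization (0.98 each). Normexp background correction (0.755) and averaging the gene's probes (0.41) lost it too, and scaling to the spike-in probe gave -3.555. A dimmer Il1rap probe (A_64_P156612) was well above background on 6 of the 12 arrays and differed by 0.42 at 7 h (limma adjusted p = 0.852) and 0.58 at 24 h (adjusted p = 0.766).

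Il1rn, the receptor antagonist, was called higher at both times and was well above background on all 12 arrays. At 7 h its probe (A_44_P462661) read -2.53, -2.68 and -2.31 in controls and -0.79, -1.05 and -1.31 after OGD. At 24 h it read -3.52, -3.02 and -3.50 in controls and -2.26, -2.71 and -1.67 after OGD. Neither time showed any overlap, and the replicates lay within 1 log2 unit of one another except for the 24 h OGD arrays. The differences were 1.45 (SE 0.28), a fold of 2.74 with a 95% interval from 1.80 to 4.17 (limma adjusted p = 0.175), and 1.14 (SE 0.28), a fold of 2.20 from 1.44 to 3.35 (limma adjusted p = 0.254). The 24 h value lay close to the fold of 2 that the call asks for, and without OGD replicate 3 at 24 h it was 0.86. Quantile normalization gave 0.93 and normexp background correction 0.72. Scaled to the spike-in probe, Il1rn lost its call at both times, at 0.65 and 0.11. Both groups were lower at 24 h than at 7 h, by 0.84 in controls (limma adjusted p = 0.221) and by 1.16 in OGD cultures (adjusted p = 0.0834), of which the latter was called and fell to 0.91 without OGD replicate 2 at 24 h. For the OGD cultures normexp background correction gave -0.475, and the call was lost.

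Il1a and Il1b, the ligands that compete with this antagonist, were near background throughout. The brighter Il1a probe (A_42_P641004, 10 spots an array) was well above background on 1 array, the third 7 h control, where it read -3.64. The other readings ran from -5.65 to -4.35, and the differences were -0.44 at 7 h (limma adjusted p = 0.732) and 0.31 at 24 h (adjusted p = 0.792). A dimmer Il1a probe (A_44_P294838) was well above background on 1 array, the second 24 h OGD array, at -3.97, and differed by 0.99 at 7 h (limma adjusted p = 0.547) and 1.2 at 24 h (adjusted p = 0.426). The Il1b probe (A_43_P14911, 10 spots an array) was well above background on the third 7 h OGD array alone, where it read -2.59. It read -5.39 and -5.52 on the other 2 OGD arrays and -5.99 to -5.57 in controls. Its difference of 1.24 at 7 h did not pass the test (SE 0.66, limma adjusted p = 0.482) and was 0.29 without that array. It passed the test without OGD replicate 1 or 2 (1.69 and 1.75) and with normexp background correction (1.03). The limma adjusted p was then 0.867, 0.556 and 0.225. At 24 h it read -6.56 to -6.02 in controls and -6.49 to -5.30 after OGD, all at background.

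The third 7 h OGD array was also the highest of its group for several other genes. It read -2.16 for Tnf, against -5.36 and -5.69 on the other 2 arrays, 3.73 against -0.25 and -0.99 for Cxcl2, and 4.02 against -0.60 and -1.28 for Ccl20. On this array the mean level of the microglial markers was -1.19, the lowest of the 12 arrays. None of the members called at 7 h was highest on it. Il1rl1 read 2.24 against 3.05 on the second OGD array, and Il6 -1.86 against -1.11 on the first. Il1rn read -1.31, the lowest of its group. Tnf, Cxcl2 and Ccl20 were picked after their values were seen.

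Il18, whose product is processed by caspase-1 like IL-1 beta, was well above background on all 12 arrays and did not pass the test at either time. Its probe (A_44_P161233) read -1.66 to -1.36 in controls and -2.10 to -1.28 after OGD at 7 h, and -2.20 to -1.47 against -2.14 to -0.95 at 24 h. The differences were -0.11 (95% interval -0.88 to 0.66, limma adjusted p = 0.907) and 0.08 (-0.68 to 0.85, adjusted p = 0.961).

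Il6, whose product signals through the IL-6 receptor and gp130, was called higher at 7 h. Its probe (A_44_P371339, 10 spots an array) read -4.40, -5.76 and -4.60 in controls, none well above background, and -1.11, -3.33 and -1.86 after OGD, all well above it. The groups were apart, with about 2 log2 units between the lowest and highest OGD array. The fitted difference was 2.82 (SE 0.67, limma adjusted p = 0.24), and the fold was at least 3.29. Scaled to the spike-in probe the difference was 2.01 and no longer passed the test. With normexp background correction it was 1.28 and stayed called. The SD over the 10 spots of an array had a median of 0.35, below the spread between arrays of a group (0.74 in controls and 1.13 after OGD). At 24 h controls read -5.44, -6.47 and -5.98 and OGD arrays -3.38, -5.69 and -4.64, and none of these 6 readings was well above background. The difference of 1.39 did not pass the test (SE 0.67, limma adjusted p = 0.387), and no fold is given. It was 0.80 without the first OGD array and 1.96 without the second, which then passed the test (limma adjusted p = 0.19). It also passed without the second OGD array at 7 h (limma adjusted p = 0.41). The OGD array read higher than the control array on all 3 slides, by 2.07, 0.77 and 1.34. With the slide as a fixed block the difference was called (limma adjusted p = 0.367), as was its difference from the 7 h response, while with the slide as a random block neither passed the test. Within OGD cultures Il6 was at least 4.62-fold lower at 24 h than at 7 h (limma adjusted p = 0.113). The fitted difference between these times was -2.47, and with normexp background correction it was -0.67 and did not pass the test.

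Tnf was well above background on 2 arrays, 1 in each 7 h group. At 7 h its probe (A_64_P034414) read -5.66, 0.92 and -4.26 in controls and -5.36, -5.69 and -2.16 after OGD. The second control array decided the difference, which was -1.40 with it (SE 1.42, limma adjusted p = 0.722) and 0.56 without it. Neither value passed the test. At 24 h Tnf read -5.94, -5.94 and -6.69 in controls and -5.32, -5.27 and -5.03 after OGD, with no overlap but all at background, and the difference of 0.99 did not pass the test (limma adjusted p = 0.784).

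**Figure D2:**
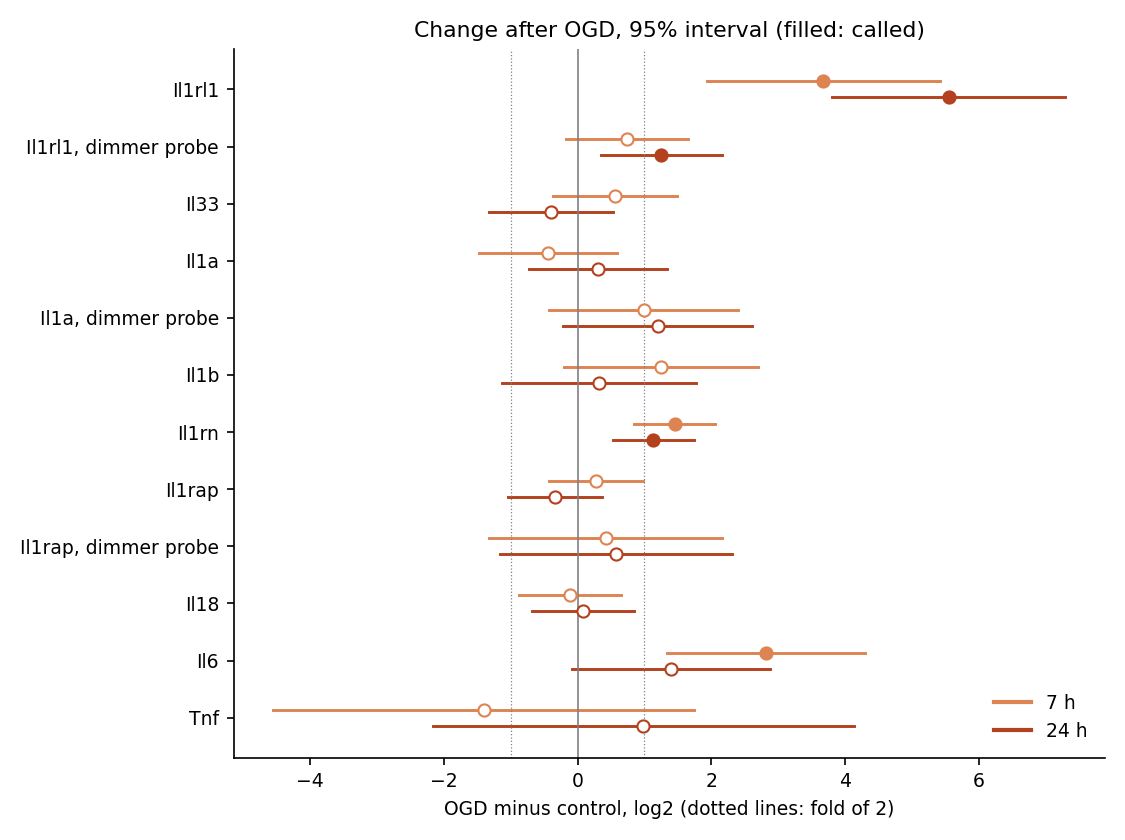
Difference between OGD and control arrays in log2 for each of the 12 probes, with limma's 95% interval, at 7 h and at 24 h. Filled points passed an unadjusted p of 0.05 and a fold of 2, and dotted lines mark that fold. Il1rl1, Il1rn and, at 7 h, Il6 have intervals above 0, as has the dimmer Il1rl1 probe at 24 h, whose readings were all at background. The fitted points of Il1rl1 at 24 h and of Il6 at 7 h rest on controls that were not well above background.

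No member's response differed between 7 h and 24 h at an unadjusted interaction p under 0.05, against 3.58% of all probes, and no probe did at an adjusted p of 0.05 (0%, with 1086 probes past the unadjusted threshold). The response at 24 h minus that at 7 h was 1.87 for Il1rl1 (SE 1.11), -0.96 for Il33 (SE 0.59) and -1.43 for Il6 (SE 0.95), each with a limma adjusted p of 1.0. Among the members, 2 were called lower at 24 h than at 7 h in controls (Il1rl1 and Tnf, against 4.10% of all probes) and 1 higher (Il1rap, against 0.830%). In OGD cultures 4 were called lower (Il1rl1, Il1b, Il1rn and Il6, against 2.59% of all probes) and none higher (2.04%). The calls for Tnf and Il1b rested on single arrays: without control replicate 2 at 7 h the Tnf difference was -1.23, and without OGD replicate 3 at 7 h that of Il1b was -0.59, and neither passed the test. The call for Il1rap was lost under several alternatives, as given above.

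The other genes of these pathways were taken from 6 lists of 73 genes, of which 63 had a named probe. Of these 63, 5 were called higher at 7 h and 7 at 24 h, against 2.08% and 3.71% of all probes, while the counts called lower were 1 and 2, against 1.66% and 1.96%. None passed an adjusted limma p of 0.05. The calls depended on single arrays: leaving out one array or replicate 1 in turn gave 2 to 7 genes called higher at 7 h and 1 to 8 at 24 h. At 7 h the lowest count came without control replicate 2, and without OGD replicate 3 it was 3. At 24 h it was 2 without control replicate 1, 4 without OGD replicate 1 or 3, and 1 without the 4 arrays of replicate 1. With all arrays, the methods' t-test called 1 gene higher at 7 h and 5 at 24 h. Its losses at 7 h were Birc3, Icam1, Cxcl2 and Ccl20. Scaling to the spike-in probe gave 3 and 1 called higher, and normexp background correction 5 and 3. In RefSeq's gene order Il1rl1 lies on chromosome 9 next to other receptor genes of the family, with Il1r1 and Il1rl2 on one side and Il18r1 and Il18rap on the other. Il18r1, a chain of the IL-18 receptor, was well above background on all 12 arrays and differed by 0.03 at 7 h (limma adjusted p = 0.963) and 0.39 at 24 h (adjusted p = 0.491). Il1rl2, the receptor for IL-36 cytokines, was at background on all 6 control arrays. After OGD it was well above background on no array at 7 h and on 2 at 24 h. Its differences were -0.33 (limma adjusted p = 0.727) and 0.41 (adjusted p = 0.596). Il1r2, the decoy receptor for IL-1 a little farther along the same chromosome, differed by 0.63 (adjusted p = 0.562) and 0.72 (adjusted p = 0.453). In all, none of the 12 measured genes in the list of other IL-1 family ligands, receptors and binding proteins was called at either time, and the IL-36 ligands Il36a, Il36b and Il36g were well above background on no array.

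Of the 4 measured genes of IL-1 and IL-18 maturation, Casp1, the protease that cleaves both cytokines, was called higher at 24 h. It read -6.23, -5.11 and -4.71 in controls, none well above background, and -2.62, -3.99 and -2.88 after OGD, all well above it. The difference was 2.18 (SE 0.97, limma adjusted p = 0.359), and the fold at least 2.33. The call was lost without replicate 1 or 3 of the OGD arrays at 24 h, where the difference was 1.91 and 2.04, and without replicate 1 or 2 of the control arrays at 24 h, where it was 1.74 and 2.30. It was also lost without control replicate 1 or 2 at 7 h, which left the difference at 2.18, and without the 4 arrays of replicate 1 (1.47). Normexp background correction gave 0.72 and scaling to the spike-in probe 1.16, and the call was lost both times. At 7 h Casp1 read 1.80 higher (limma adjusted p = 0.492). The inflammasome sensor Nlrp3 was well above background on no array, and the adaptor Pycard differed by -0.19 (limma adjusted p = 0.846) and 0.34 (adjusted p = 0.66).

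None of the 13 measured genes of IL-1 receptor signalling and none of the 13 of IL-6 reception and signalling was called. Myd88, the adaptor of the IL-1 and ST2 receptors, was 0.56 higher at 7 h (SE 0.21, limma adjusted p = 0.354) and 0.47 higher at 24 h (adjusted p = 0.362), on all 3 slides and with no overlap. Both differences passed the unadjusted threshold and lay below the fold of 2. Il6st, which encodes gp130, differed by 0.19 (limma adjusted p = 0.768) and 0.39 (adjusted p = 0.449). Socs3, a feedback inhibitor of IL-6 signalling, was 0.76 higher at 7 h (limma adjusted p = 0.344) and 0.69 higher at 24 h (adjusted p = 0.334), past the unadjusted threshold but again under the fold of 2.

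Of the 9 genes of TNF reception and signalling, 1 was called higher at 7 h and 2 at 24 h, against the same 2.08% and 3.71% of all probes. Birc3, an inhibitor of apoptosis at the TNF receptor, was called at both times with differences of 1.25 (SE 0.52, limma adjusted p = 0.393) and 1.2 (adjusted p = 0.354), the former 0.55 without the third OGD array. Its 7 h call was also lost without control replicate 1 or 2 at 7 h, and its 24 h call without control replicate 1 at 7 h, any one of the 24 h controls or OGD replicate 1 or 3 at 24 h, with differences of 1.03 to 1.33. Both calls were lost without the 4 arrays of replicate 1. Tnfrsf1b, the second TNF receptor, was called at 24 h, at 1.68 (SE 0.61, limma adjusted p = 0.308) with overlapping groups, which was 1.00 without control replicate 1 and 1.4 without OGD replicate 3, where the call was lost, and 2.28 without control replicate 3. It read 0.98 higher at 7 h (adjusted p = 0.53). Tnfrsf1a, the first TNF receptor, differed by -0.02 at 7 h (limma adjusted p = 0.972) and 0.51 at 24 h (adjusted p = 0.295), the latter past the unadjusted threshold but not the fold of 2.

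The list of textbook target genes of IL-1 and TNF held most of the calls. Of its 12 measured genes, 4 were called higher at each time (all probes, 2.08% at 7 h and 3.71% at 24 h), and 1 at 7 h and 2 at 24 h were called lower (1.66% and 1.96%). The median difference of the list was 0.91 at 7 h and 0.82 at 24 h. Cxcl1, a neutrophil chemokine, read 3.02, 2.42 and 2.59 in controls and 5.63, 5.07 and 6.45 after OGD at 7 h, and 0.05, 1.1 and 0.90 against 5.70, 3.30 and 3.78 at 24 h. Its groups were far apart at both times. The differences were 3.04 (SE 0.58, limma adjusted p = 0.175) and 3.58 (adjusted p = 0.209). Among the called pathway genes, only Cxcl1 kept its call at both times under each of the 24 alternatives in which these genes were refitted. Its 24 h difference was 2.86 without OGD replicate 1 and 2.54 without the 4 arrays of replicate 1. The related Cxcl2 was higher by 4.09 (SE 1.16, limma adjusted p = 0.271) and 3.10 (adjusted p = 0.313). At 7 h this ranged from 2.64 without OGD replicate 3 to 5.05 without the 4 arrays of replicate 1 and stayed called. At 24 h it was 2.03 without OGD replicate 1, 2.93 without control replicate 1 and 1.86 without all of replicate 1, where the call was lost each time, and 3.82 without OGD replicate 3. The chemokine Ccl20 was higher by 3.53 at 7 h (SE 1.52, limma adjusted p = 0.404), which was 1.88 and no longer passed the test without the third OGD array. The call was also lost without any one of the 7 h controls (3.33 to 3.66), without control replicate 2 at 24 h (3.53) and without the 4 arrays of replicate 1 (3.98), and leaving out OGD replicate 1 or 2 gave 4.19 and 4.53. The monocyte chemokine Ccl2 was called at 24 h, at 2.18 (SE 0.72, limma adjusted p = 0.29). This was 1.48 without control replicate 1 and 1.1 without the 4 arrays of replicate 1, and the call was lost both times, while its 7 h difference of 1.36 did not pass the test (adjusted p = 0.481) and included a saturated OGD array. Icam1, an adhesion molecule, was higher by 1.30 (SE 0.43, limma adjusted p = 0.314) and 1.54 (adjusted p = 0.269), and lost its 7 h call without control replicate 2 (1.08) or OGD replicate 3 (0.86) and its 24 h call without the 4 arrays of replicate 1 (1.09).

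In the other direction, Mmp9, a matrix protease, was 2.12 lower at 7 h (control over OGD 4.35-fold, SE 0.53, limma adjusted p = 0.254) and 1.19 lower at 24 h (adjusted p = 0.362), and after OGD it was well above background on 1 array at 7 h and 2 at 24 h. Its 7 h difference was -2.72 without OGD replicate 3, and its 24 h call was lost without control replicate 2 or 3 or OGD replicate 1 or 2 at 24 h, at -1.17 to -0.76, and without any one of the 7 h controls or OGD replicate 2 at 7 h, which left it at -1.19. Ptgs2, the inducible cyclooxygenase, was called lower at 24 h, where controls read -0.53, -1.17 and -1.34 and OGD arrays -2.07, -2.31 and -1.88 (control over OGD 2.11-fold, limma adjusted p = 0.252), whereas at 7 h it read 0.51 higher (adjusted p = 0.46). Its difference fell below a fold of 2 without control replicate 1 (-0.84) or OGD replicate 2 (-0.97) at 24 h, or without the 4 arrays of replicate 1 (-0.85). Nfkbia, the feedback inhibitor of NF-kappaB, was 0.78 higher at 7 h (limma adjusted p = 0.271) and 0.56 higher at 24 h (adjusted p = 0.318), past the unadjusted threshold, under the fold of 2 and without overlap at either time. The calls on the lower side also depended on the processing. With normexp background correction Mmp9 gave 0.275 at 7 h and 0.271 at 24 h, and Ptgs2 gave -0.248 at 24 h. No gene of the list was then called lower at either time. Centring on the 75th percentile left none called lower at 24 h. Thus the members of this list did not share a direction in the main fit.

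**Figure D3:**
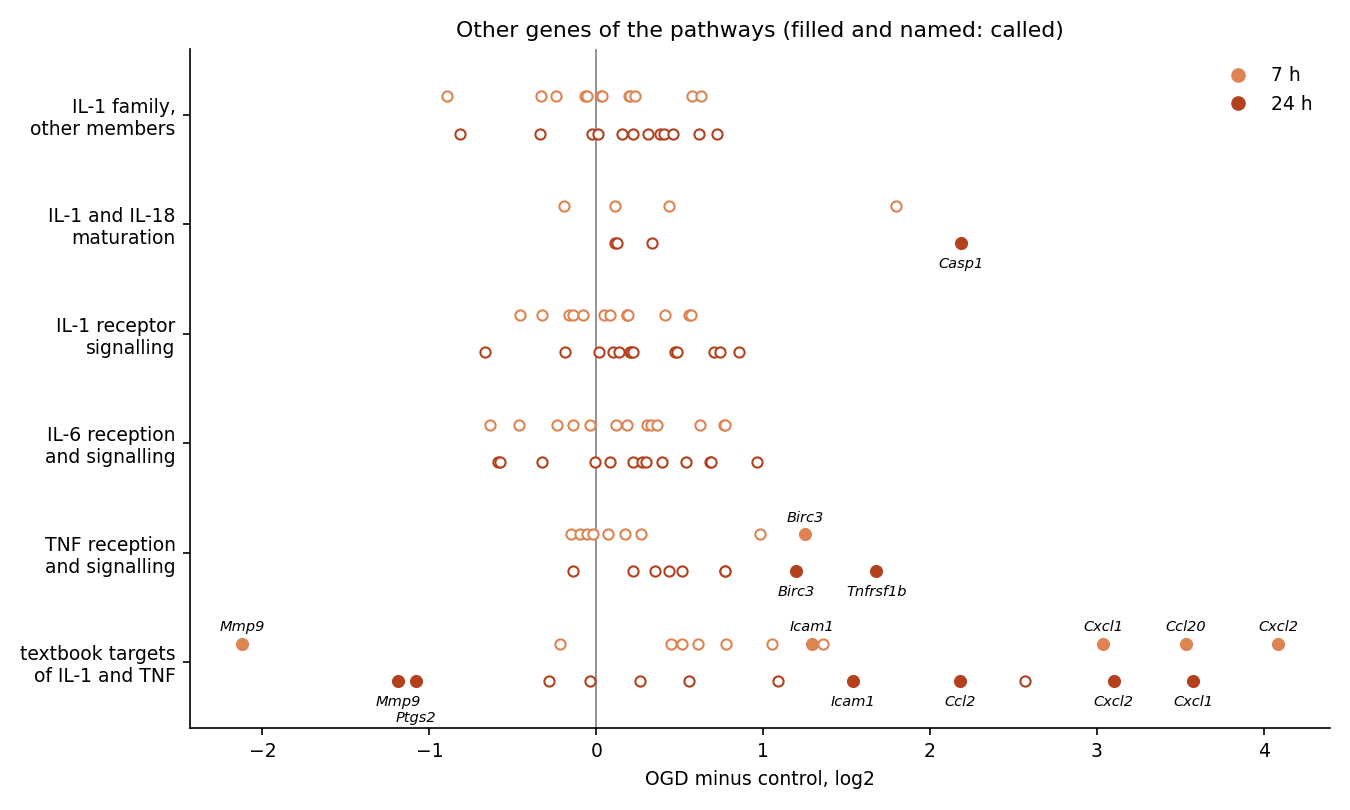
Difference between OGD and control in log2 for the 63 measured genes of 6 pathway lists, each point a gene's brightest probe, at 7 h and at 24 h. Filled, named points passed an unadjusted p of 0.05 and a fold of 2. Most named points lie in the list of textbook targets, with Mmp9 and Ptgs2 on the lower side.

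In bulk RNA, more cells of a type and more RNA per cell cannot be told apart, so marker lists are given beside these values, with calls to be read against the shares of all probes, which were 2.08% higher and 1.66% lower at 7 h and 3.71% and 1.96% at 24 h. Of 16 microglial markers, 1 was called at 7 h (Cx3cr1, 1.02 higher, limma adjusted p = 0.263) and none at 24 h, and the median difference of the list was 0.30 at both times. The mean level of the list ran from -1.15 to -0.90 in controls and from -1.19 to -0.51 after OGD at 7 h, and from -1.08 to -1.03 against -1.11 to -0.41 at 24 h. None of 11 astrocyte markers was called, with mean levels of 4.82 to 5.11 against 4.90 to 5.24 at 7 h and 4.78 to 5.37 against 4.07 to 5.56 at 24 h. Mast cells are a known source of ST2. Of their 6 markers, 1 was called higher at 7 h (Hdc, 1.24, limma adjusted p = 0.417) and none at 24 h. The median difference of the list was -0.37 at 7 h and -0.003 at 24 h. Ms4a2, a chain of the IgE receptor, was well above background on no array. Of 12 neuronal markers, 2 were called lower at 7 h and 4 at 24 h, with list medians of -0.45 and -0.82. Of 12 markers of vascular cells and fibroblasts, 1 was called lower at 7 h (Cldn5) and 1 higher at 24 h (Pdgfrb, 1.34, limma adjusted p = 0.269), with mean levels of -0.10 to 0.46 in controls and -0.54 to 0.43 after OGD at 7 h and of -0.34 to 0.23 against 0.21 to 0.66 at 24 h. Of 12 oligodendrocyte markers, 1 was called lower at 7 h (Cspg4) and none at 24 h. The part of these markers in the Il1rl1, Il1rn and Il6 values was not tested.

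The genes whose levels over the 12 arrays were most like those of Il1rl1, among 12769 genes, were Gpx2 (Pearson r = 0.973), Tm4sf1 (0.972), Ripk3 (0.970), Adamts7 (0.958) and Plp2 (0.947). These r values hold the differences between the 4 groups as well as those within them, and all points share the array's scaling. Gpx2, a glutathione peroxidase, had mean levels of -1.30 and 1.24 in control and OGD at 7 h and of -3.51 and -0.37 at 24 h. Ripk3, a kinase of necroptosis, had -0.12 and 1.44 at 7 h and -2.20 and 0.12 at 24 h. Like Il1rl1, both had their lowest mean in the 24 h controls and their highest in the 7 h OGD cultures. Since they were chosen by their correlation with Il1rl1 on these same arrays, this order is no separate observation. Among the genes most like Il33 were Mcee (r = 0.920), Spef2 (0.909), Ext1 (0.904) and Lhx2 (0.899). None of these 4 was called at either time, and each had its lowest level on the dim first OGD array at 24 h, as Il33 did. They too were chosen by correlation on these arrays, so this likeness is part of the choice.

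**Figure D4:**
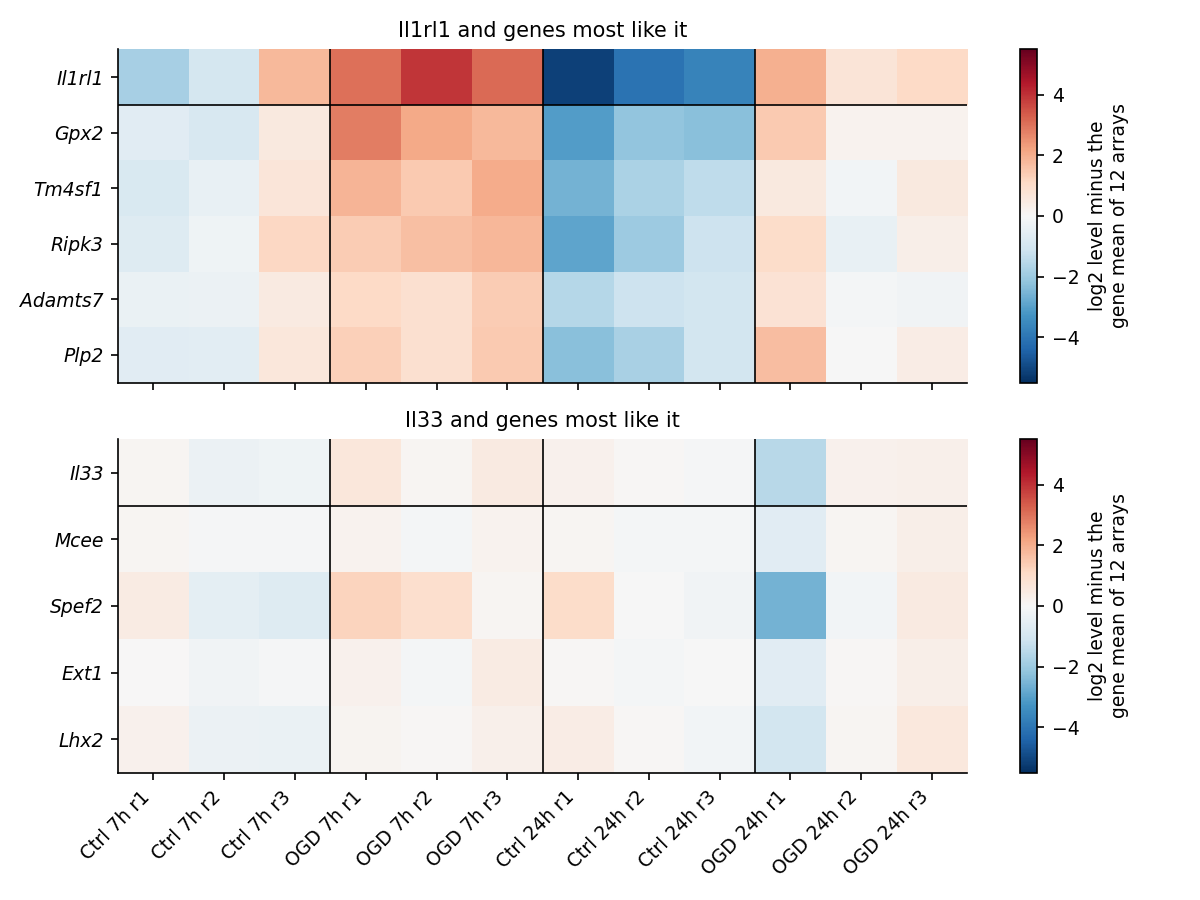
Level of Il1rl1 with the 5 genes most like it, and of Il33 with 4 of the genes most like it, on the 12 arrays, as log2 level minus the gene's mean over all arrays. Black vertical lines part the 4 groups of 3 arrays. In the upper panel the 24 h controls are lowest and the 7 h OGD arrays highest by group mean, and in the lower panel the first 24 h OGD array is lowest.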

How the data were processed

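Total RNA of 12 samples, from 3 independent cultures per the study's methods, was hybridised to one-colour Agilent rat arrays with 44254 spots each. Per the file headers, the deposited intensities (processed signals) were background-subtracted and detrended with Feature Extraction 10.5.1.1. The authors' own log2 values, centred on each array's median, served as an alternative and differed from those used here by 1 constant per array within 0.01 for at least 99.9% of probes.

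Here, outlier spots were left out, spots of a probe averaged on the log2 scale, and each array centred on the median over its non-control probes. Probes were named through their RefSeq accession in a RefSeq gene table, which names 18004 of 30367 probes. A gene is represented by its brightest probe. Groups came from the sample titles. The 4 group means were fitted with limma 3.58.1 in R 4.3.3 with empirical Bayes moderation and Benjamini-Hochberg adjustment over all probes, and 70 of 364404 probe values were missing and not imputed. The thresholds are those of the study's methods. The 12 arrays limit the precision, and the fit was tested on simulated data.

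The genes and lists described, and the rule that names every member and its most similar genes, were chosen with earlier results of these data known. The alternatives were another centring, scaling, background correction, filter, probe choice, test and block, and leaving out arrays. The comparison of 24 h with 7 h and the normexp correction on the median signal were added after seeing the data. Il1r1 was not analysed, and 1 gene is not reported here.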

Additional observations from a re-analysis of the deposited data

How the results depend on the processing

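Of the member calls, Il1rl1 kept its own at both times under all 25 alternatives, and the number of called members was 2 to 4 at 7 h. The 2 were Il1rl1 and, lower after OGD, Tnf, scaled to the spike-in probe. At 24 h, where 2 members were called, 1 remained (Il1rl1) scaled to the spike-in probe, after quantile normalization or with normexp correction, and leaving out arrays gave 1 to 3. The count of members whose response differed between the times was 0, and became 1 (Il6) under quantile normalization, with leaving out arrays giving 0 to 1 (Il1rl1 or Il6). Outside leaving out arrays, 237 of the values had the direction and side of the threshold reported, 16 lost a call, 3 gained one and 15 changed direction.

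Apart from the call of Il1rap between the control times, the values that changed direction belonged to members that were not called. Scaled to the spike-in probe, Il33 gave -0.244 and Il1rap -0.531 at 7 h. At 24 h that scaling gave -0.714 for Il1a, -0.706 for Il1b, -0.943 for Il18 and -0.040 for Tnf, and -3.555 for Il1rap between the control times. Normexp correction gave 0.803 for Il1a, 0.384 for Il18 and 0.063 for Tnf at 7 h. Averaging a gene's probes gave 0.275 for Il1a at 7 h and 0.123 for Il1rap at 24 h. Quantile normalization gave -0.095 for Il1a and -0.051 for Il18 at 24 h, and the 75th percentile gave 0.003 for Il18 at 7 h. The cause was not tested. Leaving out arrays at 7 h moved Il1a between -0.837 and 0.087, Il18 between -0.264 and 0.178 and Tnf between -2.731 and 0.556. At 24 h it moved Il33 between -0.713 and 0.283, Il1b between -0.053 and 0.543, Il1rap between -0.560 and 0.117 and Il18 between -0.305 and 0.287.

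The replicate numbers were not taken as pairing the samples: arrays of the same slide deviated together with correlations of -0.03, 0.31 and 0.18 at 7 h and of -0.12, 0.16 and -0.19 at 24 h. With the slide as a fixed replicate block 3 members were called at 7 h, 3 at 24 h (Il6 joined) and 1 in the difference between the times (Il6). As a random block the counts were 3, 2 and 0.

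Over all probes, 631 were called higher and 505 lower at 7 h and 1126 and 595 at 24 h. These counts were 74 and 284, and 20 and 517, scaled to the spike-in probe, 2047 and 871, and 190 and 553, with normexp correction, and 380 and 428, and 539 and 95, with the methods' t-test. The 75th percentile gave 708 and 349 at 7 h, and fitting each time alone 329 lower at 24 h. Leaving out arrays gave 357 to 1068 higher and 307 to 682 lower at 7 h, and 403 to 1601 and 140 to 1444 at 24 h. Without OGD replicate 1 at 24 h, 56 probes passed an adjusted limma p of 0.05 at 7 h, none of them for a member. Correction on the mean signal was not run. Il1a, Il1b and Tnf were at background on most arrays, so these values do not show whether such low levels differed.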
